A study of Homo sapiens with 24 samples.

Results

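Regions of open chromatin found in enzalutamide-resistant RES-A cells and not among the strongest peaks of the parental LNCaP cells are described here. They were chosen by the authors' peak lists: in each of the 24 lists the 50000 peaks of highest pileup were kept, the kept peaks on autosomes were merged, and a merged region was taken when all 12 RES-A lists and no parental list had a kept peak in it. There were 2105 such regions among 113666 merged regions, or 1.85 per 100. They made up 7.80% of the 26989 regions kept in all 12 RES-A lists. By the same lists, 12876 regions were kept in all 24 lists (called shared regions below) and 799 were parental only. Because pileup in the sublines chose the regions, their difference between RES-A and LNCaP is given as a description, with no test.

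FAIRE-seq reads the DNA that is recovered from sheared, cross-linked chromatin after phenol extraction, which is mostly DNA free of nucleosomes. LNCaP is a human prostate cancer cell line that depends on the androgen receptor, and RES-A is 1 subline derived from it that is resistant to enzalutamide (ENZ), an antagonist of that receptor. Both sublines were kept for 3 days in medium with 5% DCC serum, and RES-A, in all of its groups including the DMSO control, was given 10 µM ENZ during those days. Each subline was then split for 18 h among 4 conditions, with 3 biological replicates in each of the 8 groups: DMSO as the solvent control, the androgen dihydrotestosterone (DHT) at 10 nM, ENZ at 10 µM, and both agents at once (DHT+ENZ). Whether ENZ was washed out of the RES-A cells before the 18 h is not given in the sources used here. The androgen receptor is a hormone-activated transcription factor whose binding opens many enhancers in prostate cells and is accompanied by loss of activity at others. Peaks that appear in 1 subline and not in another are often distal enhancers, so the place of such regions and their response to androgen are of interest.

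The lists held from 73254 to 275774 peaks. A peak's pileup is the number of overlapping fragments at its summit and is not scaled between libraries, so each list has its own lowest kept pileup, from 25 to 56 in RES-A and from 6 to 54 in LNCaP. The 2 shallowest lists, LNCaP ENZ replicate 1 and LNCaP DHT replicate 1, kept peaks down to a pileup of 6 and 8, and LNCaP ENZ replicate 1 had 11425 kept peaks tied at its lowest value. Without these 2 lists the rule gave 2447 regions. Read totals were not used here, and counting error is therefore not given. The lists are in hg19, and no hg19 annotation or genome was used, so genes, exons, sequences and marker genes of the cell lines at these regions were not analysed here.

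The RES-A-only regions were of moderate length and strength. Their median length was 491 bp (range 216 to 1550), against 434 bp for all merged regions, 611 bp for shared regions and 668 bp for parental-only regions. Their mean rank percentile in the 12 RES-A lists had a median of 88.0, where 100 is the strongest peak of a list, and shared regions had 94.9. The median fold enrichment at the RES-A-only regions was between 7.96 and 9.77 in the 12 RES-A libraries, and at shared regions between 9.67 and 11.5. The RES-A peaks were reproducible in position: the SD of the 12 summits within a region had a median of 19.6 bp.

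Of the 10 strongest RES-A-only regions, 8 were on chromosome 1 and 2 on chromosome 6. The strongest, chr1:240759966-240761120 in the long arm, had a pileup of 109, 131 and 148 in the DMSO libraries of RES-A. The DHT libraries had 115, 97 and 141, the ENZ libraries 118, 177 and 115, and the DHT+ENZ libraries 114, 133 and 137. The list of every one of these 12 libraries placed it among its 1808 strongest peaks, and no parental list had a peak of any strength there. The next, chr1:226005341-226005707, ran from 74 to 195 in RES-A. LNCaP DHT+ENZ replicate 1 and LNCaP DMSO replicate 1 had peaks there, of 24 and 22, below the lowest kept pileups of those lists (32 and 29). The other 10 parental lists had no peak in that region.

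The third, chr6:47408243-47408930 in the short arm, had the highest fold enrichment of the 10, from 14.1 to 18.0 in the RES-A libraries. Its RES-A pileup was 103, 147 and 149 with DMSO and 82, 78 and 123 with DHT. These values are not scaled for depth: the lowest kept pileups were 34, 41 and 47 with DMSO and 28, 25 and 38 with DHT. The parental pileup of this region was between 15 and 27 in the 8 parental lists that had a peak there. In contrast, chr1:201464938-201465485 had a weaker peak in 11 of the 12 parental lists, from 8 to 42, and a RES-A pileup from 87 to 163. The strongest regions thus ranged from no parental peak at all to a parental peak in nearly every list. Of the 10, chr1:108139936-108140306, chr1:206887233-206887645 and chr1:226005341-226005707 had median fold enrichments of only 5.25, 5.60 and 7.50 in RES-A, because the local background there, recovered from pileup and fold enrichment, was 7.78, 6.72 and 5.70 times the lowest background of the library.

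The longest region, chr3:7729242-7730791, spanned 1550 bp and was of average strength, with a RES-A pileup from 46 to 111 and weaker peaks in 10 parental lists, from 14 to 36. The other 4 of the 5 longest, on chromosomes 6, 10 and 17, spanned 1230 to 1280 bp and had weaker peaks in 6 to 11 parental lists. At the chromosome 10 region chr10:29228747-29229976 the RES-A pileup was 28, 31 and 40 with DHT and 54, 81 and 74 with DMSO. The lowest kept pileups of those lists were 28, 25 and 38 with DHT and 34, 41 and 47 with DMSO, so depth enters these values. The 5 longest regions thus had parental signal in 6 or more lists.

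The threshold of the rule ran through a continuum. The 5 regions just inside it were chr5:134370715-134371082, chr1:86094351-86095013, chr5:164632550-164632924, chr19:15705857-15706525 and chr12:15367810-15368308, whose weakest kept peak ranked between 49941 and 49996 in its list. The 5 just outside were chr11:63571691-63572147, chr13:113851253-113851631, chr7:45168775-45169227, chr3:34186772-34187257 and chr10:85566567-85567344, whose missing peak ranked between 50004 and 50050. On both sides the deciding pileup equalled the lowest kept pileup of that list, so the order among ties decided them. A further 947 regions were kept in 11 RES-A lists and no parental list, and 934 of them had a deposited peak in the twelfth. In the other direction, 752 regions were kept in all 12 RES-A lists and in 1 parental list, which for 317 was 1 of the 2 shallow lists.

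The RES-A-only regions were unevenly spread over the chromosomes. Chromosome 1 held 477 of them (22.7%) against 10.9% of merged regions, and chromosome 6 held 231 (11%) against 5.71%. On chromosome 1 the regions were on both arms, 226 on the short arm and 251 on the long arm, and likewise on chromosome 6, with 118 and 113. Per 100 merged regions there were 3.85 on chromosome 1 and 3.56 on chromosome 6, then 2.86 on chromosome 17 and 2.35 on chromosome 20.

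Chromosome 15 had the fewest, with 17 regions or 0.476 per 100. The short arm of chromosome 8 had 1 RES-A-only region among 1622 merged regions, whereas its long arm had 73 among 4263. The long arm of chromosome 4 had 24 among 5058. The short arm of chromosome 4 had 1.58 per 100 and its long arm 0.474.

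Several of the same places stood apart in the shared regions, which the rule did not choose for a difference. The median log2 pileup of shared regions, after centring each library on all of them, was higher in RES-A than in LNCaP by 0.26 on chromosome 1 and by 0.31 on chromosome 6. It was 0.73 lower on the short arm of chromosome 8 (log2 difference -0.73), -0.29 on chromosome 15 and -0.27 on the long arm of chromosome 4. On the long arm of chromosome 4 the difference was not arm-wide: the windows from 50000001 to 130000000 were at -0.26 to -0.48, whereas the 4 windows with a value between 140000001 and 190000000 were at -0.02 to -0.00 and still had few RES-A-only regions, 0.474 to 0.913 per 100. Chromosome 21 had a difference of 0.24 and 2.25 RES-A-only regions per 100. Taken whole, chromosomes 17, 20, 16 and 10 did not follow this order, with 2.86, 2.35, 2.24 and 2.22 per 100 and differences of only 0.06, -0.02, 0.03 and 0.04. Chromosome 16 was mixed: its long arm was at 0.10 with 2.70 per 100, its short arm at 0.00 with 1.70. The windows chr16:70000001-80000000 and chr16:80000001-90000000 were at 0.28 and 0.34, with 4.94 and 2.23 per 100. However, chr16:10000001-20000000 had 2.81 per 100 at a difference of 0.01. DNA copy number was not analysed here, and the part of a chromosome-wide difference in the choice of these regions was not tested.

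**Figure D1:**
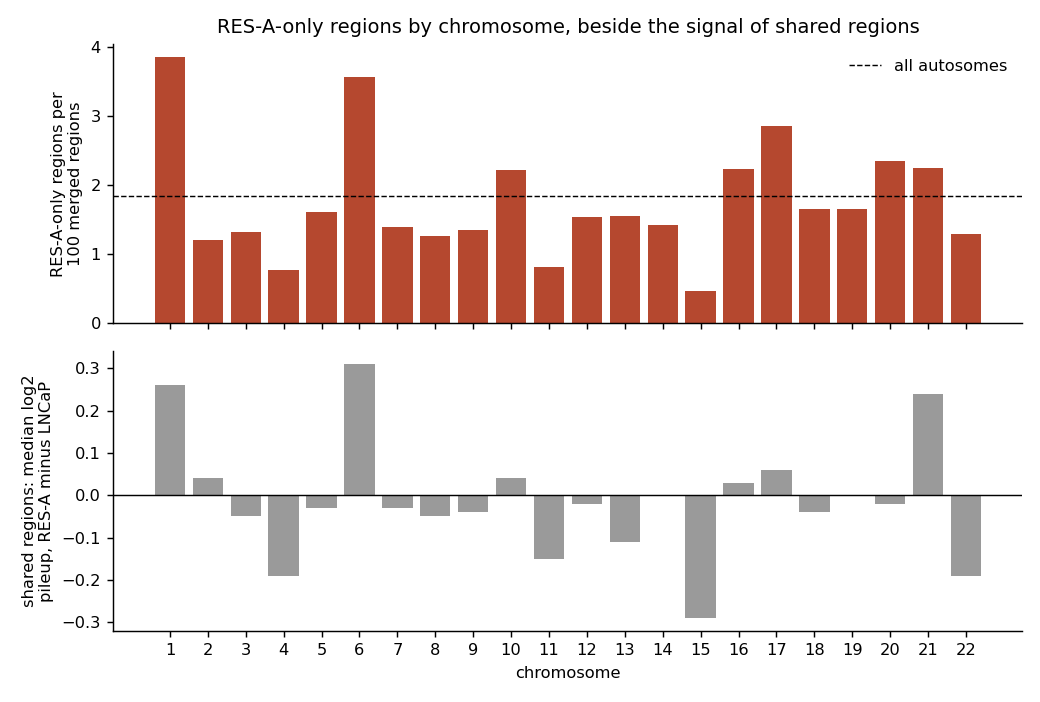
Top, RES-A-only regions per 100 merged regions on each autosome, with the dashed line at 1.85 for all autosomes. Bottom, the median log2 pileup of shared regions in RES-A minus LNCaP. Chromosomes 1 and 6 have the tallest bars in the upper panel (3.85 and 3.56) and the highest values below (0.26 and 0.31), and chromosome 15 has the lowest in both (0.476 and -0.29).

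Windows of 10 Mb gave the same picture at a finer scale. The 5 windows with most RES-A-only regions were chr1:200000001-210000000 with 44, chr1:220000001-230000000 with 43, chr1:230000001-240000000 with 36, and chr6:40000001-50000000 and chr1:10000001-20000000 with 34 each. Together they held 9.07% of the RES-A-only regions and 2.57% of merged regions. In the chromosome 6 window the 19 shared regions had a median difference of 0.62. There the library medians ran from 0.22 to 0.41 in the 12 RES-A libraries and from -0.46 to -0.26 in the 12 parental ones, so the sublines did not overlap. Such a separation was not particular to this window. Of 273 windows with at least 10 shared regions, 36 were apart with RES-A higher and 26 with LNCaP higher. In the 4 chromosome 1 windows the difference of shared regions was between 0.32 and 0.37.

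Over the 273 windows with at least 10 shared regions, the number of RES-A-only regions per 100 merged regions went with the difference of the shared regions (Spearman's rho 0.616, Pearson's r 0.641, a description across windows that share libraries). Where shared regions were below -0.1, there were 0.829 RES-A-only regions per 100. Between -0.1 and 0.1 there were 1.64, between 0.1 and 0.3 there were 2.87, and above 0.3 there were 4.43. Windows whose shared regions differed by at most 0.1 in either direction held 999 RES-A-only regions (47.5%) and 53.6% of merged regions. The windows between 0.1 and 0.3 held 410 (19.5%, against 12.6% of merged regions) and those above 0.3 held 406 (19.3%, against 8.06%).

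**Figure D2:**
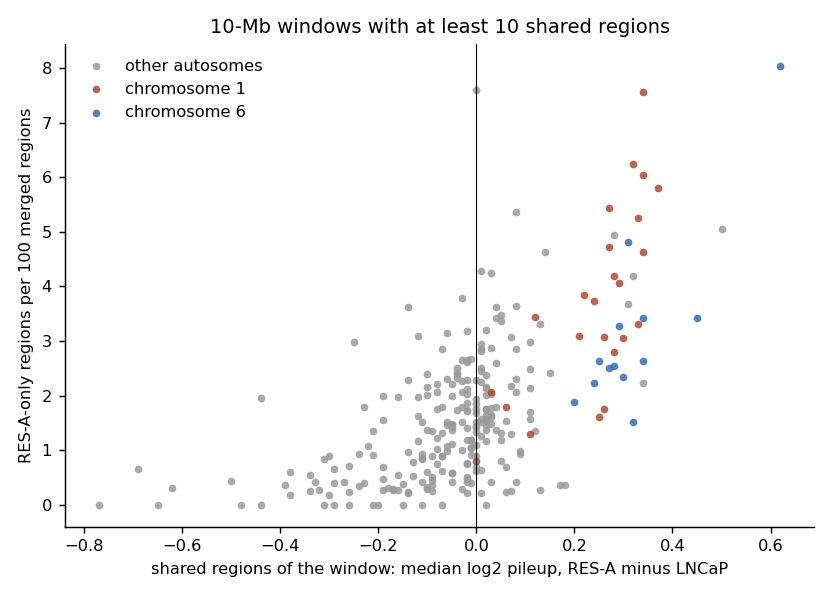
Each point is a 10-Mb window with at least 10 shared regions; the horizontal axis is the median log2 pileup of its shared regions in RES-A minus LNCaP, and the vertical axis is its RES-A-only regions per 100 merged regions. Windows of chromosomes 1 and 6 lie mostly to the right of 0, and the highest blue point is the chromosome 6 window at 0.62 and 8.04 per 100.

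The nearest other RES-A-only region was a median of 197 kb away. Another lay within 100 kb of 785 regions (37.3%) and within 250 kb of 54.5%. For comparison, the median was 368 kb among the 799 parental-only regions and 38.8 kb among the 12876 shared regions, but these sets differ in number, which by itself changes the spacing. Joined wherever neighbours were within 100 kb, the regions formed 321 runs of 2 or more, of which 12 had at least 5, and 1320 regions had no other within that distance. They lay about as far from shared regions as the other regions kept in all 12 RES-A lists did: the nearest shared region was a median of 44.4 kb away, against 42.0 kb for those others and 141 kb for parental-only regions.

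The run with most members, chr1:225799535-226110502, had 10 RES-A-only regions in 311 kb together with 5 shared regions. All 5 of these shared regions were higher in RES-A, by 0.31 to 1.05 on the log2 scale. The local background of the 10 regions was 1.71 to 5.70 times the lowest background of the library, with a median of 3.56. In contrast, the run chr10:134232372-134445454 had 8 regions in 213 kb and 2 shared regions that differed by only 0.08 and 0.12.

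The run chr6:47210122-47446966 had 8 RES-A-only regions in 237 kb and no shared region, and it contained 2 of the 10 strongest regions. The run with the closest spacing of those with at least 6, chr17:1899215-1928929, had 6 RES-A-only regions in 29.7 kb among 9 merged regions, with no shared and no parental-only region between them. All 6 had weaker parental peaks, in 2 to 9 lists. A run on chromosome 11, chr11:58611123-58780693, differed from these. Of its 5 regions 4 had no parental peak at all, its local background was 2.83 to 6.15 times the lowest, and its 3 shared regions differed by -0.70, -0.06 and 0.15.

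At most RES-A-only regions the parental cells had a weaker peak that ranked below the 50000 kept. Such a peak was present in at least 1 parental list at 1810 regions (86.0%), in at least 6 lists at 1355 (64.4%) and in all 12 at 24 (1.14%). No parental list had a peak at 295 regions. The shallow LNCaP ENZ replicate 1 and LNCaP DHT replicate 1 had a weaker peak at only 161 (7.65%) and 217 regions (10.3%), and LNCaP DMSO replicate 3, with 129409 peaks, at 969 (46.0%). Among the other 9 lists the share did not follow the number of peaks. It was highest in LNCaP DMSO replicate 2 (74.5%, 262245 peaks), whereas the longest list, LNCaP DHT replicate 2 with 275774 peaks, had 59.8% and LNCaP DHT replicate 3 had 51.7%. A missing parental peak means only that none was called in that list, and the part of depth in this was not tested.

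**Figure D3:**
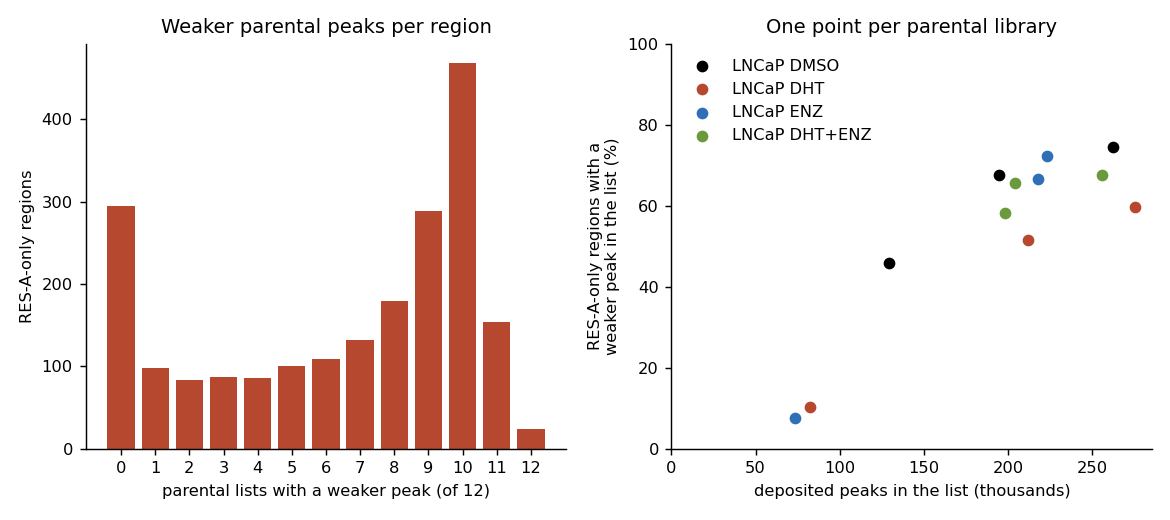
Left, number of RES-A-only regions by how many of the 12 parental lists had a weaker peak there. Right, for each parental library, deposited peaks against the percentage of RES-A-only regions with a weaker peak. The left panel has its highest bar at 10 lists (468 regions) and a second one at 0 lists (295), and the 2 shallow libraries sit at 7.65% and 10.3%.

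The weaker parental peaks had summits close to those of the RES-A peaks. They were counted only where they overlapped the region, which by itself limits this distance, and no other set of peaks was compared. Over 13644 such peaks, the summit lay a median of 26.0 bp from the median RES-A summit, and 92.6% lay within 100 bp. They were shorter, with a median of 219 bp against 375 bp. In the 3 LNCaP DMSO libraries their median pileup was 18, 30 and 13, where the lowest kept pileups were 29, 54 and 19. Over all 2105 regions the median pileup in the 3 RES-A DMSO libraries was 54, 65 and 75, where the lowest kept pileups were 34, 41 and 47.

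How far the parental signal fell short varied. At 401 regions (19.0%) the strongest parental peak reached at least 90% of the lowest kept pileup of its list, and at 457 (21.7%) it was under 50% or absent. At 97 regions (4.61%) a parental pileup equalled the lowest kept pileup in at least 1 list. In the 2 shallow lists, with lowest kept pileups of 6 and 8, the weaker peaks had median pileups of 5 and 7. There a single fragment changes this percentage much. At the 570 regions with a peak in all 10 deeper parental lists, where a difference could be measured in each library, the log2 pileup of RES-A exceeded that of LNCaP by a median of 1.03, with a range of 0.37 to 2.23, after centring on shared regions. After subtracting the shared-region difference of the window it was a median of 0.92 and was above 0 at 537 of 538 regions. The rule and the choice of these 570 regions bear on both the sign and the size of this difference.

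The 295 regions with no parental peak were not stronger in RES-A than the rest. Their mean percentile had a median of 88.1, against 88.0 for regions with a weaker peak in 1 to 11 lists, and their median length was 461 bp against 497 bp. Their fold enrichment was lower, with a median of 8.32 against 9.20. Beside this, 29.2% of them had a local background in RES-A more than 3 times the lowest of the library, against 14.5% of all RES-A-only regions and 19.5% of shared regions. The part of the local background in the missing parental peaks was not tested.

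The treatments were compared within RES-A, where the rule had not compared them. The highest pileup in each region was divided by the library's median over the 26989 regions kept in all 12 RES-A lists, and the log2 values (relative pileup) were tested with limma across all of these regions, with Benjamini-Hochberg adjustment and a threshold of 0.05. The 4 contrasts share groups and are not independent of each other. The RES-A-only regions had a lower median relative pileup with DHT, 0.784, 0.804 and 0.797, than with DMSO, 0.857, 0.855 and 0.872. With ENZ the values were 0.881, 0.874 and 0.859, and with DHT+ENZ 0.85, 0.839 and 0.841. The 3 DHT libraries were the lowest of the 12. Their lists held 169514, 176254 and 191488 peaks, against 194848, 204397 and 199686 with DMSO. The ENZ and DHT+ENZ lists held from 184636 to 240262, which overlaps the DHT lists. The part of depth in the lower values with DHT was not tested.

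With DHT, 370 of the 2105 RES-A-only regions (17.6%) fell, against a background of 10.3% of all regions tested, and 182 (8.65%) rose, against 10.9%. The log2 changes of those that fell were between -0.91 and -0.29 and those of the regions that rose between 0.30 and 1.13. The median change was -0.11 for RES-A-only regions and -0.03 for all regions tested, with a median SE of 0.14 for a single region. The share that fell was smaller where parental lists kept the region: it was 13.2% among regions kept in 1 to 11 parental lists and 6.52% among shared regions. Strength in RES-A ran along with this, with median mean percentiles of 88.0, 89.6 and 94.9 from RES-A-only to shared regions. Parental signal and strength in RES-A were not separated. The share that rose was 11.3% and 10.8% in these sets.

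The rule bears on the rising side of this comparison, because a region that DHT opens in both sublines can be kept in a parental DHT list and then drops out. When the 3 parental DHT lists were left out of the rule, 11.1% of 2286 regions rose and 16.5% fell. When the DHT+ENZ lists were left out too, 12% of 2450 rose and 15.9% fell. The share that rose was below the background of 10.9% with the parental DHT lists in the rule and above it without them. Leaving these lists out admits regions that only they kept, which by itself favours regions that rise with DHT. The alternatives therefore cannot decide whether RES-A-only regions rise less often than the background. The share that fell was above 10.3% under each of these rules, but the matching rule without the parental DMSO lists was not run. The scaling also bears on it: with each library scaled by its genome-wide background in place of the regions' median, 88 RES-A-only regions (4.18%) rose and 46 (2.19%) fell, against 5.97% and 1.20% of all regions, so that the larger number of calls turned from falling to rising. The fold enrichment in place of pileup gave 106 that rose and 172 that fell.

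The 5 RES-A-only regions with the smallest adjusted p among those that rose with DHT were all on chromosome 1. At chr1:167666997-167667461 the relative pileup was 1.16, 1.13 and 1.01 with DMSO and 1.94, 2.13 and 2.23 with DHT (log2 change 0.93, SE 0.11, limma adjusted p = 5.87e-12). With fold enrichment in place of pileup the change was 0.28 and was no longer past the threshold (limma adjusted p = 0.113). In relative pileup the groups did not overlap, and the ENZ (1.15 to 1.47) and DHT+ENZ (1.49 to 1.79) libraries lay between them or at the edge of the DMSO range. At chr1:175559873-175560547 the values were 0.56, 0.70 and 0.59 with DMSO and 1.57, 1.13 and 1.36 with DHT (log2 change 1.13, SE 0.15, limma adjusted p = 1.03e-09). With DHT+ENZ they were 0.83, 0.71 and 0.59, within or near the DMSO range. The others, chr1:185037488-185037946, chr1:201469830-201470203 and chr1:37927131-37927762, changed by 0.84, 1.05 and 1.05, stayed past the threshold with fold enrichment, and at each of them the DHT libraries were above every DMSO library. Of all 182 that rose, 53 (29.1%) were on chromosome 1, and of the 370 that fell, 103 (27.8%) were, against 22.7% of all RES-A-only regions.

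The regions with the smallest adjusted p among those that fell with DHT were on chromosomes 10, 1, 8, 1 and 3. At chr10:29413457-29414360 the relative pileup was 1.33, 1.46 and 1.31 with DMSO and 0.67, 0.70 and 0.84 with DHT (log2 change -0.90, SE 0.12, limma adjusted p = 2.2e-09). The ENZ libraries, 1.42, 1.35 and 1.33, were in the DMSO range, and the DHT+ENZ libraries, 1.13, 1.10 and 1.25, were between the DMSO and DHT ranges. At chr1:117774269-117774959 DHT lowered the values from 1.67, 1.54 and 1.48 to 0.69, 1.07 and 1.0 (log2 change -0.79, SE 0.11, limma adjusted p = 2.09e-08). There the DHT+ENZ values of 1.40, 1.42 and 1.54 were near the DMSO range. With fold enrichment the change at this region was -0.22 (limma adjusted p = 0.287), no longer past the threshold. The other 3, chr8:59412625-59413267, chr1:235110790-235111385 and chr3:149104294-149105156, changed by -0.86, -0.80 and -0.91. Of these, the chromosome 1 region was lost with fold enrichment (-0.31, limma adjusted p = 0.112).

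**Figure D4:**
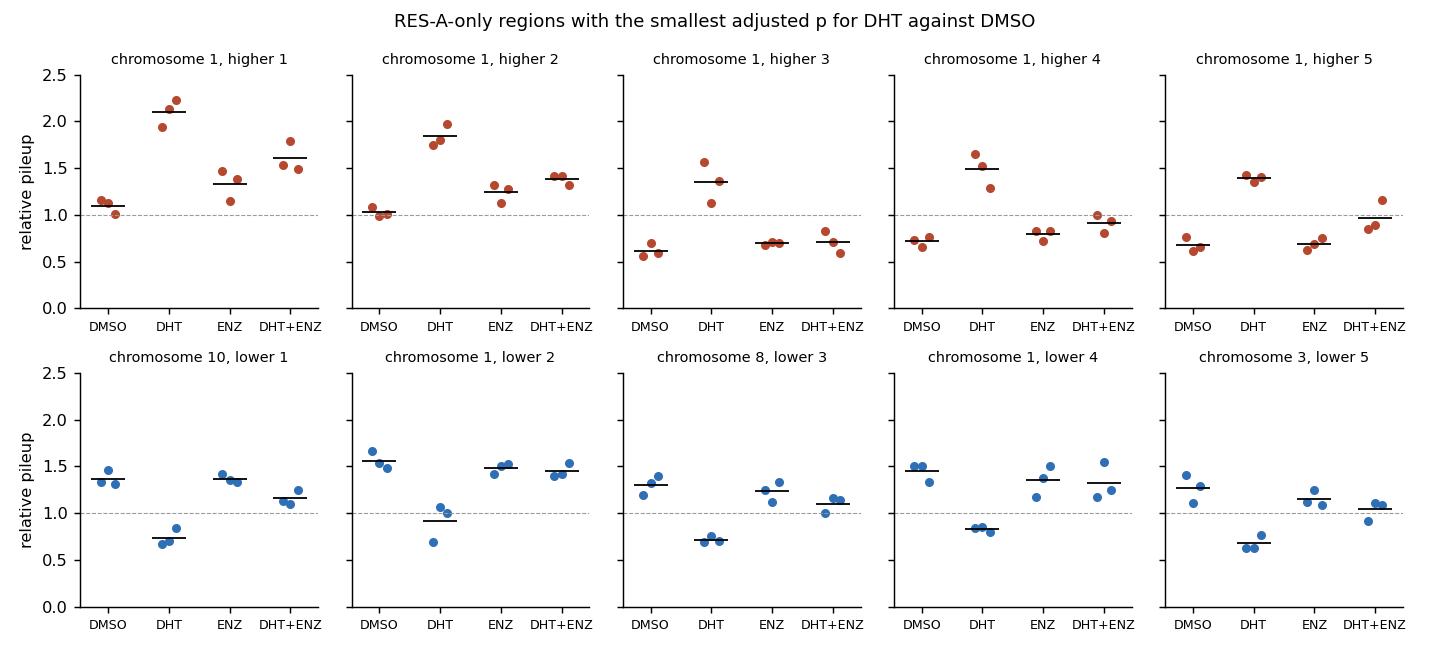
Relative pileup (pileup over the library's median of the regions tested, dashed line at 1) in the 12 RES-A libraries at the 5 RES-A-only regions with the smallest adjusted p that rose with DHT (top) and the 5 that fell (bottom), in the order of the text by adjusted p. Points are libraries and bars the mean of 3; in all 10 panels the 3 DHT points are separate from the 3 DMSO points.

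Some runs held regions that passed the threshold in both directions with DHT, and others did not. Among all RES-A-only regions 8.65% rose and 17.6% fell, and the small counts within a run were not tested against these shares. In the run chr1:175489187-175604756, of 5 RES-A-only regions, 1 rose (the region at 175559873 above) and 2 fell, with log2 changes from -0.51 to 1.13. In chr6:47210122-47446966, 2 of 8 rose and 1 fell, with changes from -0.37 to 0.79. In the 10-member run of chromosome 1, 3 fell and none rose, and in the 8-member run of chromosome 10 no region passed the threshold in limma, with changes from -0.20 to 0.16.

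ENZ alone changed few of the RES-A-only regions, in cells that had been kept in ENZ before. Compared with DMSO, 3 of 2105 (0.143%) rose and 0 fell in limma, against a background of 0.0333% and 0% of all regions tested. At an unadjusted p under 0.05 there were 137 in both directions together (6.51%), about the share of all regions tested (6.66%). At chr10:126581413-126581962 the relative pileup was 1.06, 0.87 and 0.74 with DMSO and 1.47, 1.40 and 1.42 with ENZ (log2 change 0.70, SE 0.13, limma adjusted p = 0.00636). Here DHT left the values at 1.0, 0.89 and 0.68, and DHT+ENZ gave 1.32, 1.34 and 1.41, so the libraries with ENZ were all above those without it.

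At chr12:3164138-3164606 the pattern was alike, with a mean of 0.80 over the 3 DMSO and 1.27 over the 3 ENZ libraries (log2 change 0.65, SE 0.14, limma adjusted p = 0.018). At chr1:234886879-234887484 the change was 0.57 (SE 0.11, limma adjusted p = 0.00815). There the values also rose past the threshold with DHT, to 1.55, 1.83 and 1.61 from 1.11, 0.82 and 0.99. These 3 calls were lost in full without RES-A DMSO replicate 3 or without RES-A ENZ replicate 3, and 1 was left without RES-A DMSO replicate 2. They were also lost with fold enrichment, with scaling by the genome-wide background and without a trend of the variance on signal.

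Adding ENZ to DHT moved more of the regions. Compared with DHT alone, 150 of 2105 (7.13%) rose and 45 (2.14%) fell, against a background of 4.0% and 3.13%. The median change was 0.06 for RES-A-only regions and -0.01 for all regions tested. The share that rose was 5.06% among regions kept in 1 to 11 parental lists and 2.5% among shared regions. These calls depended on the scaling: with the genome-wide background 2 (0.0950%) rose and 6 (0.285%) fell, against 0.0148% and 0.252% of all regions, the median of all regions moved by -0.12 and the median SE went from 0.14 to 0.20. The difference between the medians of RES-A-only and all regions was 0.07. It is the same under both scalings by construction, because each shifts all regions of a library alike, so it is no check on the scaling. Single libraries counted as well: 87 rose without RES-A DHT+ENZ replicate 2, 96 without replicate 3 of that group, and 99 without RES-A DHT replicate 1. The number that fell was 24 to 29 without RES-A DHT replicate 1 or 2 or without any of the 3 RES-A DHT+ENZ replicates.

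The region with the smallest adjusted p here, chr20:52380130-52380789, had a relative pileup of 0.71, 0.80 and 0.81 with DHT and 1.68, 1.5 and 1.52 with DHT+ENZ (log2 change 1.02, SE 0.12, limma adjusted p = 5.9e-10). Its values with DMSO, 1.02, 1.22 and 1.05, were below those with ENZ, 1.44, 1.43 and 1.47, so that the libraries with ENZ were the highest with and without DHT. The regions chr14:90976475-90976956, chr11:116343224-116343830 and chr1:117714144-117714845 rose by 0.85, 0.85 and 0.79, and the chromosome 12 region above rose by 0.91. With fold enrichment these 4 calls were lost (log2 changes of 0.22 to 0.32, limma adjusted p of 0.16 to 0.434), and with the genome-wide background the first 3 were lost too (limma adjusted p of 0.0533 to 0.0808). At chr11:116343224-116343830 DHT alone gave 0.69, 0.76 and 0.68, below every one of the 9 other libraries, which ran from 1.15 to 1.5.

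Among the regions that fell when ENZ was added to DHT were chr1:175559873-175560547 (log2 change -0.93, SE 0.15, limma adjusted p = 7.11e-06) and chr1:201469830-201470203 (-0.70), both named above for their rise with DHT. At chr2:20798897-20799458 the values were 1.24, 1.22 and 0.94 with DHT and 0.53, 0.69 and 0.71 with DHT+ENZ (log2 change -0.81, SE 0.15, limma adjusted p = 9.47e-05). With fold enrichment the change was -0.32 and the call was lost (limma adjusted p = 0.221). The DMSO values of this region, 0.75, 0.70 and 0.64, were as low as those with DHT+ENZ. The other 2, chr4:24281650-24282144 and chr1:181462256-181462740, changed by -0.73 and -0.69.

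With ENZ present, DHT changed few RES-A-only regions: 2 (0.0950%) rose and 3 (0.143%) fell in DHT+ENZ against ENZ, against a background of 0.956% and 0.0741% of all regions tested. The 2 that rose were chr1:8403403-8404095 (log2 change 0.58, SE 0.15, limma adjusted p = 0.022) and chr7:73172761-73173287 (0.54, SE 0.14, limma adjusted p = 0.0248). At the second the ENZ libraries had 0.78, 0.82 and 0.72, whereas the DHT+ENZ libraries had 1.25, 1.05 and 1.07; the values with DHT alone, 1.18, 1.11 and 1.19, were alike in height. The 3 that fell were chr7:35270854-35271394, chr1:175489187-175489839 and chr1:181753223-181753833, with log2 changes of -0.63, -0.52 and -0.49. All 5 calls were lost with fold enrichment and with the genome-wide background. The 2 rises were both lost without RES-A DHT+ENZ replicate 1, RES-A ENZ replicate 2 or RES-A ENZ replicate 3, 1 was left without RES-A DHT+ENZ replicate 2, and there were 4 without RES-A DHT replicate 2 and 5 without RES-A ENZ replicate 1. No fall was left without RES-A DHT+ENZ replicate 2 or RES-A ENZ replicate 3, and 1 without RES-A ENZ replicate 1.

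**Figure D5:**
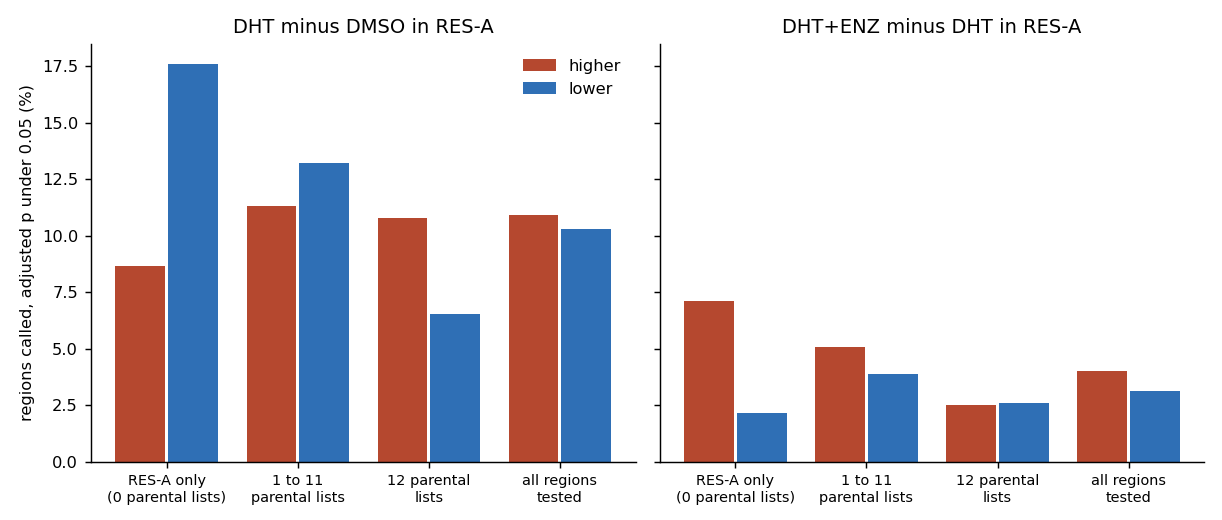
Percentage of regions that passed an adjusted p of 0.05 in limma, by how many parental lists kept the region, for DHT minus DMSO (left) and DHT+ENZ minus DHT (right) in RES-A. Going from RES-A-only to shared regions, the share that fell with DHT goes from 17.6% to 6.52% and the share that rose when ENZ was added goes from 7.13% to 2.5%; both sets of counts change with the scaling described in the text.

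The weaker parental peaks allowed a look at the same treatments in LNCaP, at the 570 RES-A-only regions with a peak in all 10 deeper parental lists. The median change with DHT in these 10 libraries was -0.13, against -0.05 over the 76263 regions with a peak in all 10. The rule used these pileups, since no parental list could keep the regions, and a peak in every list was asked for besides, so rises and falls were both limited by the choice of regions. Calls in the parental libraries, and the fit of the difference in DHT response between the sublines, are for this reason not reported.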

How the data were processed

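FAIRE-seq peak lists of 24 libraries (50-bp single-end reads) were used. Per the labels and methods, the authors used BWA 0.7.8-r455 for alignment to hg19, Picard 1.118 for duplicates and MACS2 2.1.0 for peak calling, library by library. The deposited lists give a pileup (a signal), a fold enrichment ratio, and the −log10 of p and q. Options and control libraries are not given in the sources used here. For 15 of 24 chromosomes peaks lie beyond the GRCh38 end, so the GRCh38 references were not used.

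Kept peaks were merged at 1 bp of overlap, and the highest pileup was taken per region and library. Local background was recovered as (pileup + 1) / fold − 1, which assumes that MACS2 added 1, and its lowest value is the genome-wide background. Chromosome arms were split at the longest gap without peaks. Treatments were tested with limma 3.58.1 in R 4.3.3 (12 RES-A libraries, 4 group means, trend), checked on simulated data. Regions named are the 10 strongest, the 5 longest, the 5 windows and 3 runs with most members, 5 on each side of the threshold, and up to 5 per contrast and direction by adjusted p; the runs on chromosomes 17, 11 and 1 (175489187) were added after their values were seen. The members and lists were chosen with earlier results of these data known.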

Additional observations from a re-analysis of the deposited data

How the results depend on the processing

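Depth differs between parental lists and limits what a missing peak means. The number of RES-A-only regions was 924 with 25000 peaks kept and 4303 with all deposited peaks; ranking on −log10 p gave 1682, of which 1236 (73.5%) overlapped a region chosen by pileup. Leaving out 1 library gave 2120 to 2352. A weaker parental peak was present at 1227 regions when it had to cover 50% of the region, and at 1792 to 1810 without 1 parental library. The share with another region within 100 kb, 37.3%, was 26.7% with 25000 peaks and also 26.7% on −log10 p; within 50 kb it was 26.5% and within 250 kb 54.5%.

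For DHT against DMSO, fold enrichment gave 106 higher and 172 lower, and scaling by the genome-wide background 88 and 46. For ENZ against DMSO both gave 0 higher, as did the fit without a trend. For DHT+ENZ against DHT fold enrichment gave 27 higher and 14 lower, and the genome-wide background 2 and 6. For DHT+ENZ against ENZ both gave 0 higher and 0 lower, while 4 were higher with quantile normalization, without a trend and with only the 6 libraries compared, the last of which gave 5 lower. Leaving out 1 library gave 129 to 185 higher and 268 to 379 lower for DHT against DMSO, 0 to 3 higher for ENZ against DMSO, 87 to 146 higher and 24 to 46 lower for DHT+ENZ against DHT, and 0 to 5 higher and 0 to 4 lower for DHT+ENZ against ENZ. Chosen after seeing the data, leaving the parental DHT lists out of the rule gave 75 lower for DHT+ENZ against DHT; leaving DHT+ENZ out too gave 295 higher for DHT against DMSO, 5 for ENZ against DMSO, 87 lower for DHT+ENZ against DHT and 4 higher for DHT+ENZ against ENZ. Apart from the alternatives' own construction the cause was not tested. Of 28 calls at named regions, 12 stayed past the threshold with fold enrichment, 17 with the genome-wide background, 25 without a trend and 20 to 28 without 1 library; none changed direction.

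Deviations of same-numbered RES-A libraries correlated at -0.09 to 0.12 over 18 pairs (median 0.03), against -0.11 to 0.09 for differently numbered ones. However, for 9 of 12 libraries the closest library of another group had the same number. The correlations were thus small, and a weak pairing by replicate number was not excluded. With the replicate block, 189 regions were higher and 383 lower for DHT against DMSO. There were 160 and 48 for DHT+ENZ against DHT, and 4 and 4 for DHT+ENZ against ENZ.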
